A study of Mus musculus with 6 samples.

Results

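The Hox genes encode homeodomain transcription factors and lie in 4 clusters, Hoxa on chromosome 6, Hoxb on chromosome 11, Hoxc on chromosome 15 and Hoxd on chromosome 2 of the mouse. All protein-coding genes named Hoxa, Hoxb, Hoxc or Hoxd with a number were taken from RefSeq's GRCm38.p6 table, the same build as mm10. They were 39 of 21887 protein-coding genes, 11 in Hoxa, 10 in Hoxb, 9 in Hoxc and 9 in Hoxd. Open chromatin was mapped by ATAC-seq, in which Tn5 transposase cuts and tags accessible DNA, in splenic B cells sorted as immature (B220+CD93+).

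There were 3 DTx libraries and 3 untreated libraries, all from the Tcrd-GDL strain, a reporter line in which γδ T cells carry the receptor for diphtheria toxin. DTx mice received 15 ng of toxin per gram of body weight in each of 2 intraperitoneal injections given 48 h apart, and cells were taken on day 8, counted from the first. Untreated mice received none, so loss of γδ T cells and any other effect of the toxin or of the injections cannot be told apart. The labels number the libraries without saying that each came from its own mouse, and the p-values therefore measure a spread that may be technical.

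Along each cluster the genes sit in the order of their paralog numbers, from the anterior genes (1 to 4) through the central (5 to 8) to the posterior ones (9 to 13), and embryos use them in that order along the body axis. Outside their domains Polycomb complexes hold the clusters closed, and MLL (Trithorax) complexes keep active members open. In blood, Hoxa and Hoxb genes are best known from stem and progenitor cells, where Hoxa9 and Hoxb4 promote self-renewal, and they are turned down as lymphocytes mature.

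Each library had its own list of peaks, the stretches where cut sites pile up. The lists held 44661 (DTx 1), 56266 (DTx 2) and 60811 (DTx 3) peaks, against 36760 (untreated 1), 42504 (untreated 2) and 56503 (untreated 3). DTx 1 and untreated 3 had the narrow layout of the peak caller and the other 4 lists the broad layout. Read depth was unknown, and only the length of a list hints at it. A peak's strength is given as its percentile by −log10 q within its own list, where 100 is the strongest peak and 50 the list's median. Percentiles from lists of different length show no change between libraries. In a bulk list, a site open in few cells and a site weakly open in many cannot be told apart.

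The promoters below show where the peaks fell. They are RefSeq sequences on GRCm38.p6, from 250 bases before to 50 bases after the gene's start, written 5′ to 3′ on the gene's strand. RefSeq's table held 24 promoters of 22 Hox genes. In the first 3 sequences capitals mark the bases under a peak in at least 1 library. Hoxc4 (chr15:103034145-103034444, + strand) and Hoxa13 (chr6:52260831-52261130, − strand) had peaks in 3 libraries each, more than any of the others. Hoxb4 (chr11:96318017-96318316, + strand) is shown because the strongest region inside a cluster begins at its downstream end. The last 2 lay under no peak of any library, and their capitals mark matches to the motifs searched: CCAAT in Hoxb1 (chr11:96365508-96365807, + strand) and, in Hoxa2 (chr6:52164782-52165081, − strand), CCAAT and the Hox-Pbx motif TGATTNAT.
Hoxc4: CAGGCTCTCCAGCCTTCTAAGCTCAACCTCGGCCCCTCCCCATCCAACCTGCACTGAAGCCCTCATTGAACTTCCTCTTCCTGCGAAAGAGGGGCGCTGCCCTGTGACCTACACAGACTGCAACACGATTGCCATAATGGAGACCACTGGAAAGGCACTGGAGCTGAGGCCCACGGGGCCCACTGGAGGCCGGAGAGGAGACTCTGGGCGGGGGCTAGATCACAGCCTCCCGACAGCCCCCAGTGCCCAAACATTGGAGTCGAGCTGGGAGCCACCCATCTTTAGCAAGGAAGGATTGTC
Hoxa13: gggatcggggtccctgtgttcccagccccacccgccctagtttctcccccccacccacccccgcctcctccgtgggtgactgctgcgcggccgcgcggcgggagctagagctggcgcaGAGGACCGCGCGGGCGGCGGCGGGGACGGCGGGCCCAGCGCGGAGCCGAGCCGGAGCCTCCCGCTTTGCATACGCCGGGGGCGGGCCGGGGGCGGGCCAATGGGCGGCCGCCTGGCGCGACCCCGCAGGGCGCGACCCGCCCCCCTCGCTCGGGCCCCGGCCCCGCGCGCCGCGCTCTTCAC
Hoxb4: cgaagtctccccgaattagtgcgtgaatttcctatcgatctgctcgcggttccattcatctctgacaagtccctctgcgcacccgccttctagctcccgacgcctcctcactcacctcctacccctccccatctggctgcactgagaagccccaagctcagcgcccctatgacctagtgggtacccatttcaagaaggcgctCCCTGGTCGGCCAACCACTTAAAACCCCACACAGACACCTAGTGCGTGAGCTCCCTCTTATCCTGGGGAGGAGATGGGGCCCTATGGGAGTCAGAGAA
Hoxb1: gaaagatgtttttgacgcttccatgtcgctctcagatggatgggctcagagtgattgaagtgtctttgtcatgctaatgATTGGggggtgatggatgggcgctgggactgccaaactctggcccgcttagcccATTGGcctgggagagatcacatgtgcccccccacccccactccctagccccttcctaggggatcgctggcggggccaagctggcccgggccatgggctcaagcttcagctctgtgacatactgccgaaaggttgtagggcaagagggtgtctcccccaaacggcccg
Hoxa2: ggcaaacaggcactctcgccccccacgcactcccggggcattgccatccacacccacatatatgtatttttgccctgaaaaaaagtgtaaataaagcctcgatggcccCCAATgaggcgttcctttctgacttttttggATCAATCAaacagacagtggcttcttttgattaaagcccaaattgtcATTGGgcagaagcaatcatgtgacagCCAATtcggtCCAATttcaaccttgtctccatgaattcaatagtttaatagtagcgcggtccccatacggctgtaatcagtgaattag

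Hox genes were called at their ends in every library less often than genes in general. A gene-end peak lies within 1 kb of one of the gene's ends. Such a peak was present in all 6 libraries at 2 Hox genes, Hoxa4 and Hoxb4, which is 5.13% against 49.2% of all protein-coding genes. Another 18 Hox genes had one in 1 to 5 libraries, so that 51.3% had at least 1 call, against 59.1% of all genes, and 19 Hox genes had none (48.7%, against 40.9%). By gene ends the difference from other genes thus lay in how many libraries shared a call more than in whether any library made one. The ends of neighbouring Hox genes can lie so close that a peak calls both. By promoters, treated below, 29.2% had a call in at least 1 library, against 54.3% of all promoters.

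Of the 18 partly called genes, Hoxa7, Hoxa10, Hoxb7, Hoxb8 and Hoxc10 had a gene-end peak in 4 libraries, Hoxa3, Hoxa13 and Hoxc9 in 3, and Hoxa11 and Hoxd9 in 2. The other 8, among them Hoxa9, Hoxb2, Hoxb5 and Hoxc6, had one in 1 library. The 19 without any were Hoxa2, Hoxa5, Hoxa6, Hoxb1, Hoxb3, Hoxb6, Hoxb9, Hoxb13, Hoxc4, Hoxc5, Hoxc8, Hoxc12, Hoxc13, Hoxd1, Hoxd3, Hoxd4, Hoxd10, Hoxd12 and Hoxd13. They include Hoxa5, which acts in lung formation, and Hoxb3 and Hoxb6, whose peaks lay deeper inside the gene.

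By library, 2 (DTx 1), 14 (DTx 2) and 13 (DTx 3) Hox genes had a gene-end peak, against 2 (untreated 1), 8 (untreated 2) and 14 (untreated 3). These were 5.13%, 35.9% and 33.3% of the Hox genes in the DTx libraries and 5.13%, 20.5% and 35.9% in the untreated libraries. Over all genes the shares were 51.9%, 56.1% and 56.9% in the DTx libraries and 51.1%, 53.3% and 57% in the untreated libraries. DTx 1 and untreated 1 were the lowest at the Hox genes and also, by a smaller margin, over all genes. Without these 2 libraries, 7 of 39 Hox genes (17.9%) were called at an end in every remaining list, against 52.6% of all genes. In lists cut to the length of the shortest, 2, 7 and 6 Hox genes had one in the DTx libraries and 2, 6 and 6 in the untreated libraries, so DTx 1 and untreated 1 stayed lowest at the Hox genes. Over all genes the equal-length shares were 49.3%, 50.1% and 49.8% in DTx libraries and 51.1%, 51.1% and 51.6% in untreated libraries, where untreated 1 equalled untreated 2 and DTx 1 stayed lowest by a small margin.

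**Figure D1:**
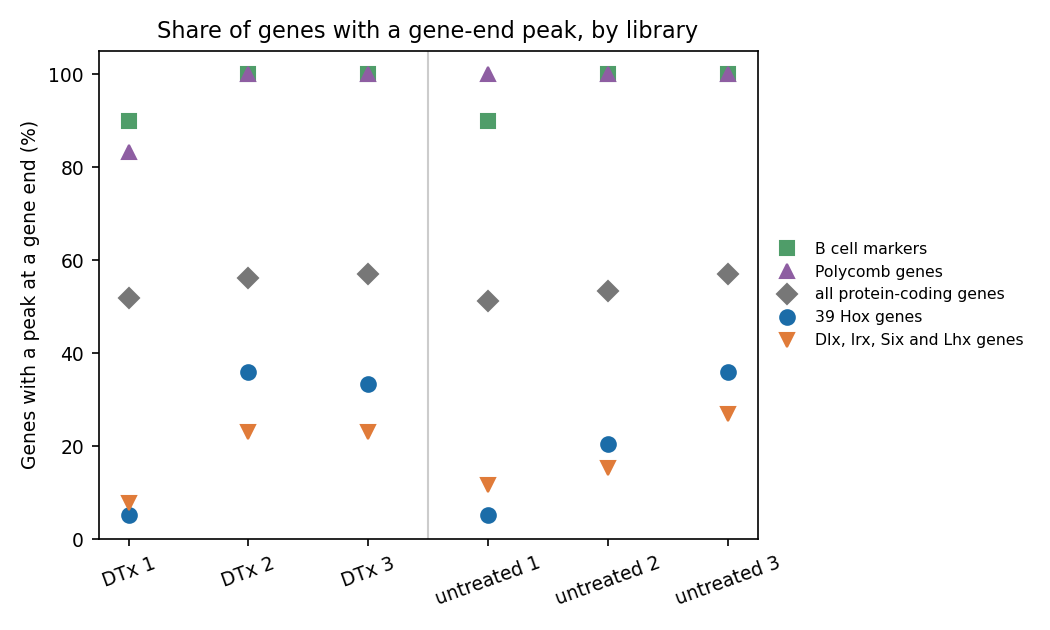
Percent of genes with a gene-end peak, 1 kb around an end (y axis, linear from 0) in each library (x axis, DTx left of untreated), for the 39 Hox genes, 26 genes of other homeobox families, 12 Polycomb genes, 10 B cell markers and all 21887 protein-coding genes. Hox genes sit between 5.13% and 35.9%, below the 51.1% to 57% of all genes in every library.

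Within a wider distance the gap narrowed. Counting the gene and 10 kb on each side, 13 Hox genes (33.3%) had a peak in all 6 libraries, against 65.9% of all genes. In at least 1 library 34 Hox genes (87.2%) had one, against 75.7% of all genes. The 10 kb flanks of neighbouring Hox genes overlap, so the 39 genes share 517 kb of sequence in 5 stretches and one peak can count for several genes. Hoxb1, which patterns the hindbrain, Hoxc13, needed for hair and nails, and Hoxc5, Hoxc12 and Hoxd1 had no peak in any library. Without DTx 1 and untreated 1, 20 Hox genes (51.3%) were called in every remaining list, against 69% of all genes.

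The calls were unevenly spread over the clusters. Within 10 kb, 7 of 11 Hoxa genes and 6 of 10 Hoxb genes were called in all 6 libraries, while 0 of 9 Hoxc genes and 0 of 9 Hoxd genes were. Among all genes 65.9% were, so Hoxa and Hoxb lay near that share and Hoxc and Hoxd below it. By position, 4 of 12 anterior genes, 7 of 11 central genes and 2 of 16 posterior genes were called in all 6 within 10 kb, where neighbours share peaks. The central genes were thus near the share of all genes too, and the anterior and posterior genes below it. The tighter measures did not centre on the middle of the clusters. By gene ends, 2 anterior, 0 central and 0 posterior genes were called in all 6, against 49.2% of all genes. By peaks inside the gene, 3 anterior, 1 central and 0 posterior genes were. Most posterior genes, 12 of 16, were called within 10 kb in some libraries only. The 2 posterior genes called throughout were Hoxa9, a regulator of blood progenitors, and Hoxa10, which patterns the uterus and also acts in blood progenitors. In DTx 1 and untreated 1 both calls came from the same region (chr6:52221416-52222148), which lies outside both genes.

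**Figure D2:**
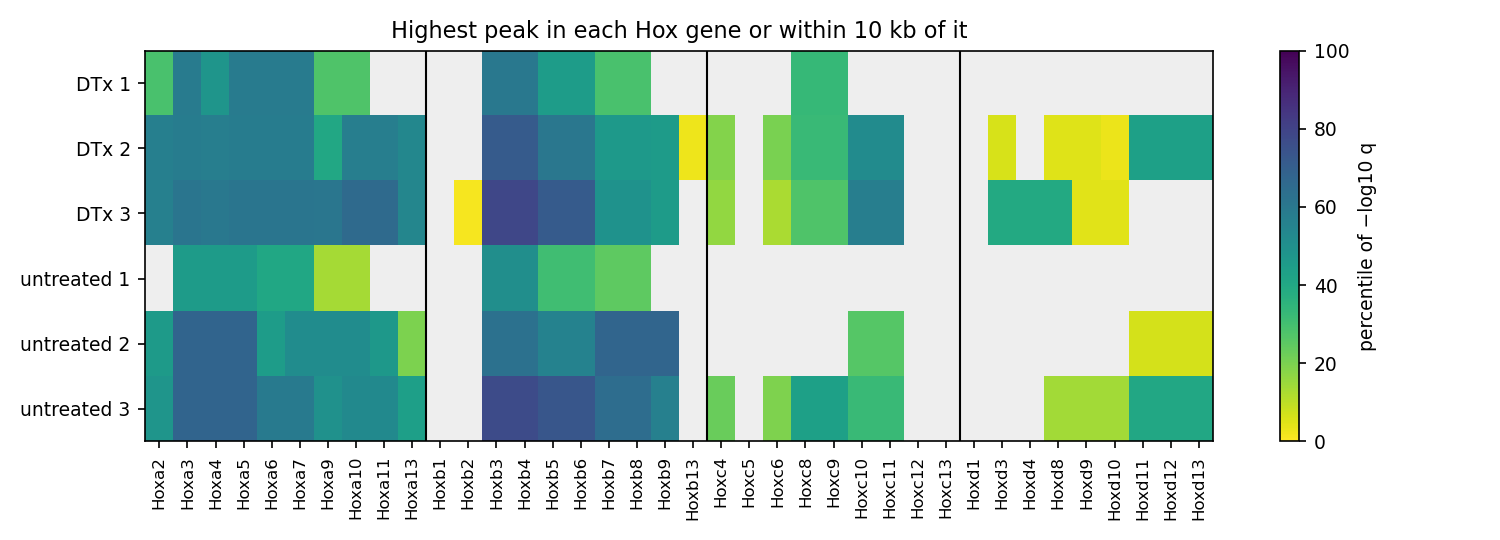
Highest within-list percentile of −log10 q (colour, 0 to 100) among the peaks of each Hox gene and its 10 kb flanks, for 38 of the 39 genes (columns, by cluster and paralog number) in each library (rows, DTx above untreated). Grey cells have no peak. Hoxa3 to Hoxa10 and Hoxb3 to Hoxb8 are filled in every library, and no Hoxc or Hoxd column is.

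Merging the 6 lists gave 52 open regions in the clusters and the 50 kb on either side. Of these, 8 (15.4%) were called in all 6 libraries, against 44.1% of the 70174 regions genome-wide, and 21 (40.4%) were called in a single library, against 18.2% genome-wide. The 8 shared regions had percentiles from 11.4 to 88 with a median of 57.6, the 23 regions in 2 to 5 libraries a median of 24.1, and the 21 single-library regions a median of 3.44. The regions seen in a single library were thus mostly near the bottom of their list. Single-library calls came from DTx 2 (6 regions), DTx 3 (6 regions) and untreated 3 (9 regions) alone, whose lists were the longest. Without DTx 1 and untreated 1, 16 of the 52 regions (30.8%) were called in every remaining list, against 57.5% genome-wide. In lists cut to the length of the shortest, 8 of 20 regions (40%) were called in all 6 libraries, against 53.6% genome-wide, a smaller gap.

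In the Hoxa cluster 3 regions were called in all 6 libraries. The first (chr6:52191849-52192409) lay 146 bp from the end of Hoxa4, a gene of the anterior block, and inside the long annotated span of Hoxa3, which runs over Hoxa4, Hoxa5 and Hoxa6. Its percentiles were 47.7, 57.1 and 60 in DTx 1 to 3 and 45, 67.7 and 67.8 in untreated 1 to 3, so the groups overlapped. The second (chr6:52211489-52212159) lay 908 bp from the end of Hoxa3, with 58.5, 58.1 and 61.2 in DTx libraries and 40.5, 44.7 and 58.7 in untreated libraries. The third (chr6:52221416-52222148) lay between Hoxa7 and Hoxa9, 949 bp from Hoxa9, with 27.5, 39.9 and 60.9 in DTx libraries and 13.4, 51.5 and 49.6 in untreated libraries. All 3 were mid-strength peaks, and the Hoxa9 one was weakest in untreated 1 and DTx 1.

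The strongest partly shared Hoxa region (chr6:52240309-52240962) lay at the start of Hoxa10, with 57.3 and 65.4 in DTx 2 and DTx 3 and 46.6 and 52.5 in untreated 2 and untreated 3. Its overlap with the Hoxa10 promoter there came from 1 untreated library alone. A region 1497 bp from Hoxa13 (chr6:52256952-52257356), a gene of the limb ends and the genital tract, had 53.9 and 54.2 in DTx 2 and DTx 3 and 19.7 and 43.6 in untreated 2 and untreated 3. Both were missing from DTx 1 and untreated 1.

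In the Hoxb cluster 3 regions were also called in all 6 libraries. The strongest (chr11:96318219-96319289), within the annotated span of Hoxb3, covered the start of Hoxb4 once the lists were merged. Peaks of 0 DTx and 2 untreated libraries overlapped the Hoxb4 promoter, and the other peaks lay past it. The region's percentiles were 59.8, 71.1 and 78.7 in DTx 1 to 3 and 50.7, 62.7 and 77.3 in untreated 1 to 3. Its fold enrichments, the authors' own ratio for each peak, were 12.5, 6.87 and 6.9 in DTx libraries and 5.42, 5.56 and 14.8 in untreated libraries. The 2 highest folds were those of the 2 narrow lists, DTx 1 and untreated 3, so folds are not set against each other across layouts. A second region (chr11:96311209-96312177), inside Hoxb3, had 44.8, 60.3 and 71.4 in DTx libraries and 30.6, 53.1 and 73.4 in untreated libraries. The third (chr11:96294262-96295000), inside Hoxb6, had 28.9, 46.2 and 48.9 in DTx libraries and 24.7, 55.8 and 64.2 in untreated libraries. The groups overlapped at all 3.

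The strongest partly shared Hoxb region (chr11:96278665-96279224) lay 177 bp from the end of Hoxb8, which acts in hematopoietic progenitors and in microglia. Its percentiles were 45.1 and 45 in DTx 2 and DTx 3 and 67.5 and 56.4 in untreated 2 and untreated 3. A region inside Hoxb8 (chr11:96284241-96284901) had 31.7 and 23.9 in DTx 2 and DTx 3 and 11.9 and 37.2 in untreated 2 and untreated 3. The gap between Hoxb9 and Hoxb13 held a region (chr11:96234902-96235190) with 31.6 and 41.2 in DTx 2 and DTx 3 and no peak in any untreated library. Hoxb13, a posterior gene of the prostate and tail, had 1 peak within 10 kb, at percentile 2.56 in DTx 2, and Hoxb2, a hindbrain gene, had 1, at percentile 1.41 in DTx 3. A peak 158 bp from Hoxb5 (chr11:96303208-96303354) reached 24.4 in DTx 3 alone.

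The Hoxc cluster had no region in all 6 libraries. Its strongest (chr15:102966313-102966708) lay 88 bp from Hoxc10, a posterior gene, with percentiles of 51.7 and 57.3 in DTx 2 and DTx 3 and 26.5 and 32.3 in untreated 2 and untreated 3. A region 2677 bp from Hoxc8 (chr15:102987375-102987862), a gene of the trunk, was called in 3 of 3 DTx libraries, at 32.9, 32.3 and 27.6, and in 1 of 3 untreated libraries, at 43.2 in untreated 3. The region holding the Hoxc4 promoter (chr15:103034056-103034654) had 18.7 and 16.4 in DTx 2 and DTx 3 and 22.7 in untreated 3. A region 856 bp from an end of Hoxc6 (chr15:102999082-102999422) had 20.1 and 12.8 in DTx 2 and DTx 3 and 19.2 in untreated 3. Untreated 1 had no peak anywhere in this cluster, and DTx 1 had the Hoxc8 peak only.

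The Hoxd cluster was the least covered. A region 1126 bp from Hoxd13 (chr2:74672729-74673226), which patterns the digits, had percentiles of 43.3 in DTx 2 and 6.35 and 39.9 in untreated 2 and untreated 3. A region inside Hoxd3 (chr2:74715858-74716050) had 39.4 in DTx 3 alone. At the start of Hoxd9 a region (chr2:74697683-74698054) had 4.4 in DTx 3 and 13.7 in untreated 3. A region 1130 bp from Hoxd3 (chr2:74749401-74749977) had 6.22 and 6.62 in DTx 2 and DTx 3 and no peak in untreated libraries. DTx 1 and untreated 1 had no peak between the outer ends of the Hoxd genes.

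**Figure D3:**
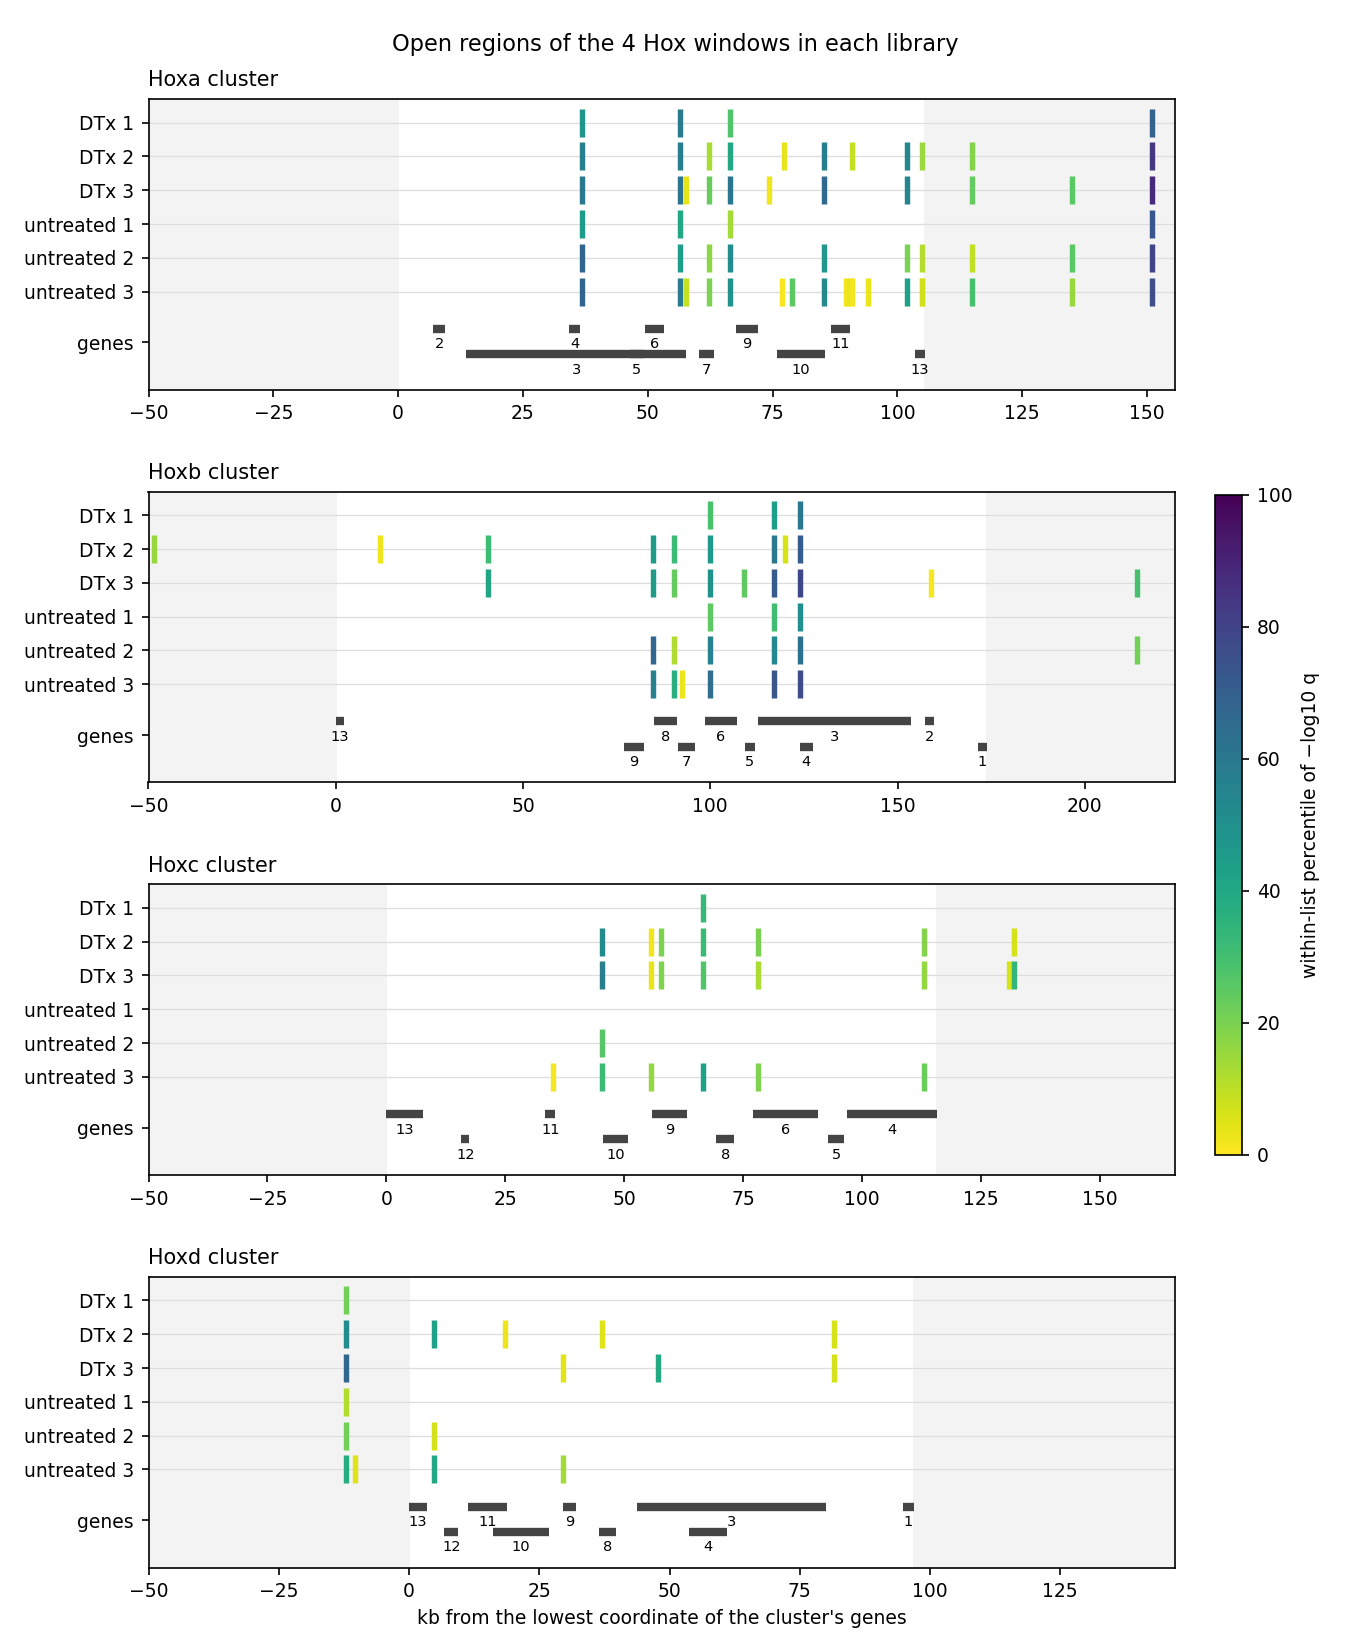
Open regions (ticks) in each library (rows, DTx above untreated) along the 4 clusters and 50 kb on either side (shaded), with gene spans below as bars marked by paralog number (1 Hoxa gene and 2 regions beside it are not drawn); the x axis is kb from the lowest coordinate of the cluster's genes and colour is the within-list percentile of −log10 q. The columns of ticks in all 6 rows are the 8 shared regions, 3 in Hoxa, 3 in Hoxb, 1 beyond Hoxa13 and 1 beyond Hoxd13.

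Several edges of the clusters were empty, and the peak of highest percentile in the 4 windows lay in one of them. Below and above stand here for lower and higher coordinates. The 50 kb below the Hoxa cluster, the 50 kb below Hoxc13 and the 50 kb above Hoxd1 had 0 peaks in all 6 libraries. Above Hoxa13, 6990 bp from Evx1, a homeobox gene that flanks the posterior end of the cluster, a region (chr6:52305827-52306508) had percentiles of 69.5, 84.2 and 88 in DTx 1 to 3 and 73.3, 79.3 and 76.3 in untreated 1 to 3. The matching edge beyond Hoxd13 held a region inside Evx2 (chr2:74655872-74656328), with 21.2, 52.1 and 67.3 in DTx libraries and 11.4, 21.2 and 38.2 in untreated libraries. Both Evx-side regions were called in all 6 libraries, although neither Evx1 nor Evx2 had a gene-end peak in any.

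Weaker edge regions were not shared by all. Between Hoxa13 and Evx1, a region 9582 bp from Hoxa13 (chr6:52270462-52270925) had 18.4 and 24.1 in DTx 2 and DTx 3 and 9.67 and 29.3 in untreated 2 and untreated 3. Another (chr6:52290156-52290550) had 25.5 in DTx 3 and 25.6 and 15.6 in untreated 2 and untreated 3. Above Hoxb1 a region (chr11:96407816-96408031) had 29.3 in DTx 3 and 21.1 in untreated 2. Above Hoxc4 a region (chr15:103053249-103053541) had 6.53 and 33.7 in DTx 2 and DTx 3 and no peak in untreated libraries. Inside Evx2 a further peak (chr2:74657788-74657992) had 5.01 in untreated 3 alone.

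Peak density was highest in Hoxa, and 4 of the 6 pairs of clusters differed. Over the 6 libraries the span from the first to the last Hox gene held 8.06 ± 4.48 peaks per 100 kb in Hoxa, 3.16 ± 1.3 in Hoxb, 2.88 ± 2.54 in Hoxc and 1.72 ± 1.68 in Hoxd (SD, n = 6). Hoxa was denser than each of the other 3 clusters in 6 of 6 libraries, by 4.89 ± 3.71 over Hoxb, 5.18 ± 2.74 over Hoxc and 6.34 ± 3.62 over Hoxd, and Hoxb was denser than Hoxd by 1.44 ± 0.504 in 6 of 6. Each of these 4 differences had p = 0.03125 by an exact two-sided sign-flip permutation test, the smallest that 6 libraries allow, and an adjusted p of 0.0469 over the 6 pairs. In untreated 1 the Hoxa and Hoxb spans both held 3 peaks, so their densities differed there only through span length, 106 kb against 174 kb. The Hoxb span includes the long gap between Hoxb9 and Hoxb13, and the density without that gap was not tested. Hoxb and Hoxc differed by 0.282 ± 1.48, with Hoxb higher in 3 of 6 libraries (exact permutation p = 0.688, adjusted p = 0.688), and by 1.58 in lists of equal length (exact permutation p = 0.03125, adjusted p = 0.0375). Hoxc exceeded Hoxd by 1.16 ± 1.26, in 4 of 6 libraries (exact permutation p = 0.125, adjusted p = 0.15).

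The same density was set against the 2 edges of 50 kb around each cluster. Hoxa spans held 5.89 ± 3.74 and Hoxb spans 2.66 ± 0.975 more peaks per 100 kb than their edges, in 6 of 6 libraries each (exact sign-flip permutation p = 0.03125, adjusted p = 0.0625 over the 4 clusters). Hoxc spans exceeded their edges by 2.38 ± 2.1, in 5 of 6 libraries (exact permutation p = 0.0625, adjusted p = 0.0833). Hoxd spans exceeded theirs by 0.553 ± 1.69, in 4 of 6 libraries (exact permutation p = 0.406, adjusted p = 0.406). No adjusted value passed 0.05, and for one to pass, 3 of the 4 clusters would have had to reach the smallest p. The tests take the libraries as the units and compare fixed stretches of the genome that every library shares.

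Span peaks were weak peaks. Their median percentile was 38.9, 31.7 and 27.6 in DTx 1 to 3 and 35.5, 45.7 and 23.9 in untreated 1 to 3, below the list median of 50 in 6 of 6 libraries. Yet the Hox neighbourhoods were not thinly covered in every library. Per 100 kb of gene neighbourhood they held 1.55, 5.41 and 5.22 peaks in DTx 1 to 3 and 1.16, 3.09 and 5.99 in untreated 1 to 3. All genes together had 2.61, 3.27 and 3.57 in DTx libraries and 2.17, 2.52 and 3.33 in untreated libraries. DTx 1 and untreated 1 were below that level at the Hox genes, and the other 4 libraries were above it.

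DTx and untreated libraries were compared by the peaks in the 4 clusters and their edges, which asks how the toxin-treated mice differed. There were 10, 33 and 34 such peaks in DTx 1 to 3, against 8, 20 and 35 in untreated 1 to 3. The groups overlapped, with a low and a high library in each. The means were 25.7 ± 13.6 peaks in DTx libraries and 21 ± 13.5 in untreated libraries (SD, n = 3 each), a difference of 4.67 (exact two-sided permutation p = 0.8, adjusted p = 1 over 8 comparisons). With 3 libraries against 3 this test cannot give a p below 0.1. Single libraries set the direction: without untreated 1 the difference was -1.83, without DTx 1 it was 12.5 and without untreated 3 it was 11.7. Within the broad layout the means were 33.5 in DTx and 14 in untreated libraries, and within the narrow layout the counts were 10 in the DTx library and 35 in the untreated one. The 2 layouts thus pointed opposite ways, and within each the longer list had more Hox peaks. In lists of equal length the counts were 10, 14 and 14 in DTx libraries and 8, 16 and 15 in untreated libraries, with means of 12.7 ± 2.31 and 13 ± 4.36 (SD, n = 3 each).

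**Figure D4:**
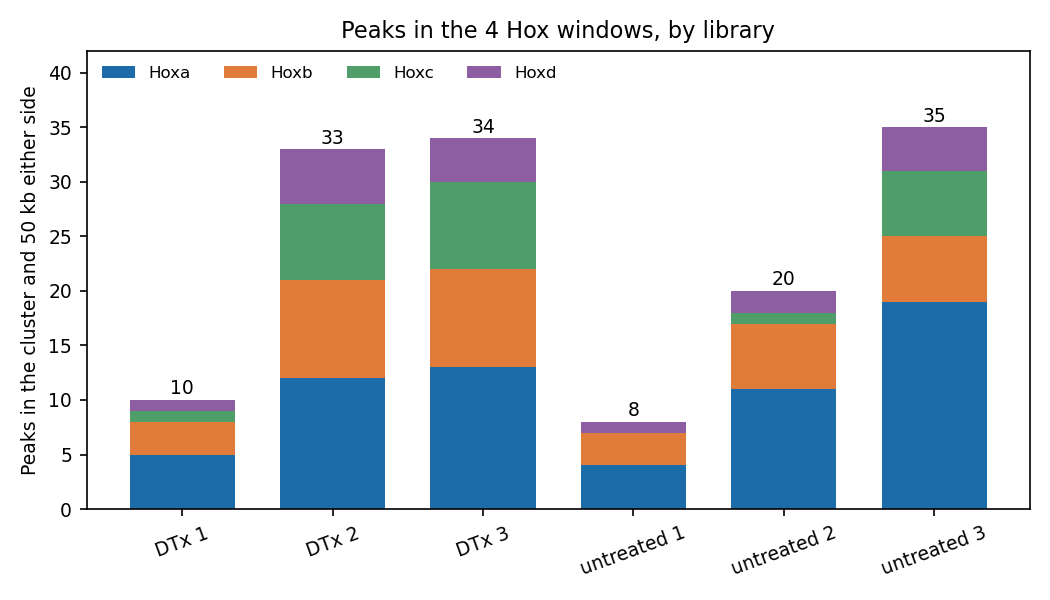
Number of peaks in each Hox cluster and its 50 kb edges (stacked bars, y axis from 0) in each library (x axis, DTx left of untreated), with the total above the bar. The totals are 10, 33 and 34 in DTx libraries and 8, 20 and 35 in untreated libraries, so the spread within each group is wider than the distance between them.

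None of the single clusters stood apart either. Hoxa had 5, 12 and 13 peaks in DTx 1 to 3 and 4, 11 and 19 in untreated 1 to 3, a difference of -1.33 (exact permutation p = 1) that was 1.17 without DTx 1 and 2.5 without untreated 3, with broad-layout means of 12.5 in DTx and 7.5 in untreated libraries and narrow counts of 5 in DTx and 19 in untreated. Hoxb had 3, 9 and 9 in DTx libraries and 3, 6 and 6 in untreated libraries, a difference of 2 (exact permutation p = 0.6), with broad means of 9 in DTx and 4.5 in untreated and narrow counts of 3 in DTx and 6 in untreated. Hoxc had 1, 7 and 8 in DTx libraries and 0, 1 and 6 in untreated libraries, a difference of 3 (exact permutation p = 0.3), with broad means of 7.5 in DTx and 0.5 in untreated and narrow counts of 1 in DTx and 6 in untreated. Hoxd had 1, 5 and 4 in DTx libraries and 1, 2 and 4 in untreated libraries, a difference of 1 (exact permutation p = 0.8), with broad means of 4.5 in DTx and 1.5 in untreated and narrow counts of 1 in DTx and 4 in untreated. The adjusted p was 1 for all 4 clusters, and in each the DTx and untreated ranges overlapped.

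Between the outer genes of the clusters alone there were 8, 28 and 27 peaks in DTx 1 to 3 and 6, 15 and 30 in untreated 1 to 3, a difference of 4 (exact permutation p = 0.9, adjusted p = 1), with broad means of 27.5 in DTx and 10.5 in untreated and narrow counts of 8 in DTx and 30 in untreated. Hox genes with a peak within 10 kb numbered 17, 32 and 30 in DTx libraries and 13, 23 and 30 in untreated libraries, a difference of 4.33 (exact permutation p = 0.6, adjusted p = 1), with broad means of 31 in DTx and 18 in untreated and narrow counts of 17 in DTx and 30 in untreated. As shares these were 43.6%, 82.1% and 76.9% in DTx libraries and 33.3%, 59% and 76.9% in untreated libraries, against 69.9%, 73.2% and 73.4% of all genes in DTx libraries and 67.9%, 69.8% and 72.5% in untreated libraries. The Hox share was above that of all genes in DTx 2, DTx 3 and untreated 3 and below it in the others. Hox genes with a gene-end peak averaged 9.67 ± 6.66 in DTx libraries and 8 ± 6 in untreated libraries (SD, n = 3 each), a difference of 1.67 (exact permutation p = 1, adjusted p = 1) that was -1.33 without untreated 1 and -0.5 without DTx 2, with broad means of 13.5 in DTx and 5 in untreated and narrow counts of 2 in DTx and 14 in untreated. These 3 counts had the same low libraries as the total.

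At single genes and regions, no call followed the treatment in all 6 libraries. No Hox gene had a peak within 10 kb in 3 of 3 DTx and 0 of 3 untreated libraries, against 0.128% of all genes, and none showed the reverse, against 0% of all genes. Of the 52 regions, 0 were called in all DTx and no untreated libraries, against 0.705% genome-wide, and 0 in the reverse, against 0.0242%. More DTx than untreated libraries called 21 regions (40.4%, against 36.4% genome-wide), and fewer called 12 (23.1%, against 8.8%). Within 10 kb, 13 Hox genes were called in more DTx libraries (33.3%, against 6.27% of all genes) and 3 in fewer (7.69%, against 1.43%). By gene ends the groups were apart in this way at 0 Hox genes in either direction, against 0.0366% and 0.00457% of all genes, while 8 were called in more DTx libraries (20.5%, against 5.02%) and 3 in fewer (7.69%, against 2.36%). The Hox shares were above those of all genes in both directions, but neighbouring Hox genes share peaks, so the genes counted are not independent. Within 10 kb, Hoxc8 and Hoxc9 were called in 3 DTx libraries and 1 untreated library. By the same 10 kb measure Hoxd11, Hoxd12 and Hoxd13, limb and digit genes, were each called in 1 DTx and 2 untreated libraries. The untreated calls of these 3 genes all came from 1 region (chr2:74672729-74673226). By gene ends the 3 called in fewer DTx libraries were Hoxa13, in 1 DTx and 2 untreated libraries, and Hoxc6 and Hoxc11, each in 0 DTx libraries and 1 untreated library.

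Promoters gave the narrowest view of the gene starts. In Hoxb only Hoxb1, Hoxb4 and Hoxb8 had a promoter in RefSeq's table, and in Hoxc only Hoxc4. The Hox promoters counted here, and in the composition and motif results below, were thus mostly those of Hoxa and Hoxd. Of the 24 Hox promoters, 0 lay under a peak in all 6 libraries, against 45.8% of 21263 protein-coding promoters, and 7 (29.2%) did so in at least 1, against 54.3%. The Hoxc4 promoter printed above was called in DTx 2, DTx 3 and untreated 3, which together covered all 300 bases, and the Hoxa13 promoter in 1 DTx and 2 untreated libraries, over 182 bases. The promoters of Hoxa3, Hoxa11 and Hoxd9 were each called in 1 DTx and 1 untreated library. That of Hoxb4 was called in 0 DTx and 2 untreated libraries, over 98 bases at its downstream end, while the peak past its start was called in 6. One of the Hoxa10 promoters was called in 1 untreated library.

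In composition, Hox promoters lay between the promoters called in all 6 libraries and those called in none. Their median GC content was 57.7%, against 56.3% of all promoters, 62% of those called in all 6 libraries and 49% of those called in none. Their median ratio of observed to expected CpG was 0.626, against 0.567 of all promoters, 0.802 of those called in all 6 and 0.227 of those called in none. The 17 Hox promoters under no peak had a median CpG ratio of 0.754, and the 7 under a peak had 0.596. Among Hox promoters those under no peak thus had the higher median, with 7 and 17 promoters compared and no test made.

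Motifs were searched on both strands, and no match of one motif overlapped a match of another in the Hox promoters. The CCAAT box (CCAAT) was in 15 of 24 Hox promoters (62.5%), against 38.2% of all promoters, in 2 of the 7 under a peak and 13 of the 17 under none. The ETS core (GGAAGT) was in 2 (8.33%), Hoxc4 and Hoxa10, against 24.8% of all. The CTCF core (CC, 3 free bases, AG, 2 free bases and GGC), CTCF being the factor that bounds chromatin loops and divides Hox clusters in embryos, was in 4 (16.7%), of Hoxc4, Hoxa11, Hoxd3 and Hoxd11, against 9.88%. TATAAA was in 4 (16.7%), against 12.6%, and the Hox-Pbx motif in 2 (8.33%), Hoxa2 and Hoxd11, against 2.75%. Hoxa2, with 4 CCAAT matches and 1 Hox-Pbx match, lay under no peak. The peaks between the genes were not searched, since no genome sequence was used here.

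The clusters also hold miRNAs that target Hox transcripts, and some of their seeds recur across clusters. The miR-10 seed lies in Hoxb and Hoxd, and the miR-196 seed in Hoxa, Hoxb and Hoxc. Below, the mature 5p arms from RefSeq (GRCm38.p6) are written 5′ to 3′ with the seed, bases 2 to 8, in capitals, to show that the copies from different clusters share it.
miR-10a-5p: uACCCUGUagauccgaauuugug
miR-10b-5p: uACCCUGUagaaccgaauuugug
miR-196a-5p: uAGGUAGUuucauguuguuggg
miR-196b-5p: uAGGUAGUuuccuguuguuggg

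Copies with the same seed lay at unlike distances from open regions. The Mir10a hairpin (chr11:96317165-96317274, + strand), between Hoxb5 and Hoxb4, lay 945 bp from the Hoxb4 region called in all 6 libraries. Mir10b (chr2:74726070-74726137, + strand), within Hoxd4, lay 10020 bp from the nearest region, called in DTx 3 alone. Mir196b (chr6:52230081-52230165, − strand), between Hoxa9 and Hoxa10, lay 293 bp from a region of DTx 3 at percentile 2.13. Mir196a-1 in Hoxb and Mir196a-2 in Hoxc lay 13400 and 2525 bp from regions called in 4 and 3 libraries. None of these 5 hairpins overlapped a region. Mir615 in Hoxc, whose seeds are not shared with the others, had its mature arms 15504 and 15547 bp from a region called in 3 libraries.

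Many partners and regulators of the Hox genes were called by gene-end peaks in every library. Of 9 TALE cofactors, which bind DNA together with Hox proteins, 5 (55.6%) were called in all 6 libraries, against 49.2% of all genes, and 4 in some. Pbx3 had percentiles of 71.9, 79.5 and 83.3 in DTx 1 to 3 and 72.3, 77.3 and 82.4 in untreated 1 to 3. Meis1, a partner of Hoxa9, had 61.4, 53.3 and 54 in DTx libraries and 62.4, 40.6 and 61.7 in untreated libraries. The share of the cofactors was thus near that of genes in general.

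Polycomb genes were called in all 6 libraries at 10 of 12 (83.3%), against 49.2% of all genes, and in some at 2. Ezh2, the Polycomb methyltransferase, was called in all 6, with percentiles between 78 and 94.9. Trithorax and MLL genes were called in all 6 at 8 of 9 (88.9%), with Kmt2a, encoding MLL1, between 48 and 74.2. Of 7 genes of CTCF and cohesin, 4 (57.1%, near the share of all genes) were called in all 6 and 3 in none, with Ctcf itself between 73.3 and 89.4. The Cdx and other ParaHox genes are the sister family of the Hox genes, and the Cdx genes act upstream of Hox genes in embryos. Cdx and ParaHox genes together were called in all 6 at 0 of 6, in some at 3 and in none at 3. Cdx2 was called in 5 libraries, at 9.34, 29.7 and 39.9 in DTx 1 to 3 and 14.7 and 32.9 in untreated 2 and untreated 3.

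Other homeobox families were also seldom called in every library. Of 26 genes of 4 other families, among them Dlx, Irx and Lhx genes, patterning genes of limb, head and nervous system, 2 (7.69%) were called in all 6 libraries, Six5 and Lhx2, against 49.2% of all genes. By library they numbered 2, 6 and 6 in DTx 1 to 3 and 3, 4 and 7 in untreated 1 to 3, which is 7.69%, 23.1% and 23.1% in DTx libraries and 11.5%, 15.4% and 26.9% in untreated libraries. These shares were below the 51.1% to 57% of all genes in every library, and DTx 1 and untreated 1 were again lowest in their groups. The 18 genes chosen as cluster neighbours were called in all 6 at 12 and in none at 2, Evx1 and Evx2. Skap2, a signalling adaptor gene below the Hoxa cluster, had 89.5 to 95, and Hibadh, a metabolic enzyme gene above Evx1, had 95.6 to 98.5. Cbx5, encoding the heterochromatin protein HP1α and lying above Hoxc4, had 95.6 to 98.7. Others were weaker: Snx10, further below Hoxa, had 12.8 to 34 in 5 libraries, Ttll6 and Calcoco2, below Hoxb and sharing a peak, had 6.14 to 36.7 in 4 libraries, and Nfe2, above Hoxc, had 30.9 to 57.3. Neighbours therefore spanned percentiles from the range of the Hox peaks to near the top of the lists.

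Marker genes were checked in the same way for the labelled cells and for others a sort could hold. Of all genes, 49.2% were called at an end in all 6 libraries, and 51.1% to 57% in any given library. B cell markers were called in all 6 libraries at 9 of 10, with Cd79a, part of the B cell receptor, at 88.8, 93.4 and 92 in DTx 1 to 3 and 80.7, 90.1 and 94.5 in untreated 1 to 3. Per library, haematopoietic progenitor markers were called at 5, 5 and 4 of 8 in DTx 1 to 3 and 4, 4 and 5 in untreated 1 to 3, with 4 of the 8 called in all 6 libraries. Those 4 were Gfi1b at 56.6 to 88.1, Cd34 at 34.6 to 52.3, Hlf at 18.3 to 47.1 and Tal1 at 2 to 21.7, while Kit, Mpo and Gata2 were called in none and Mecom in 3. Stroma and endothelium markers were called at 1, 3 and 2 of 10 in DTx libraries and 1, 2 and 4 in untreated libraries. They were lowest in the same libraries as the Hox genes, as the Dlx genes and the Cdx and ParaHox genes also were. Myeloid markers were called at 2, 2 and 3 of 8 in DTx libraries and 2, 3 and 3 in untreated libraries. T cell markers were called at 2, 3 and 4 of 6 in DTx libraries and 2, 3 and 3 in untreated libraries, and erythroid markers at 4, 4 and 4 of 6 in DTx libraries and 3, 4 and 4 in untreated libraries. The part of such cells, and of list length, in the Hox calls was not tested.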

How the data were processed

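ATAC-seq peak lists of 6 libraries were used, 1 list per library. Per the submitters' processing notes the build was mm10 and the tools were Trim Galore 0.4.3, Bowtie2 2.3.2 and MACS2 2.1.1. The sources used here do not give Tn5 shifting, duplicate removal or read totals. Each deposited list gives a peak's position and length, its pileup (a coverage signal), its fold enrichment (a ratio), and its p-value and q-value as −log10. The headers of those last 2 deposited columns are damaged, and the columns were identified by order and values. All are the authors' values and serve only to rank or filter peaks within a list. With depth unknown, no depth-based interval is given.

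Peaks came from the 19 autosomes, X and Y, leaving out 2 mitochondrial peaks per list. Gene spans came from RefSeq's GRCm38.p6 table, which has no strand or exons, so gene ends (1 kb either side of either end) stood in for promoters, and exons were not separated from introns. A gene was called by at least 1 bp of overlap, a window peak by its midpoint. Regions were made by merging overlapping peaks of all 6 lists. Equal-length lists kept the 36760 peaks of highest −log10 q. Group differences used exact permutation over the 20 relabellings, and densities a sign-flip test over the 64 sign patterns, with Benjamini-Hochberg adjustment. Python 3.11.15, NumPy 2.4.6, pandas 2.3.3 and matplotlib 3.10.9 were used, and the code was tested on simulated data. Trdc and Trac were not matched among the protein-coding genes. The members, gene lists and motifs were chosen with earlier results of these data known. All 39 Hox genes enter the counts, but results of 1 Hoxa gene by itself are not reported here. Named regions were those called in all 6 libraries, any found throughout one group and nowhere in the other, and up to 5 per cluster, called in 1 to 5 libraries, with the highest percentile. Other genes came from the lists or lay nearest to a named region.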

Additional observations from a re-analysis of the deposited data

How the results depend on the processing

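Depth is unknown, and 3 libraries a group cannot give p under 0.1. In equal-length lists the DTx minus untreated difference was -0.333 peaks for all clusters and their edges together and -0.333 for Hoxb, both of the opposite sign to the deposited lists. Broad-layout lists alone gave 5 for Hoxa, also opposite in sign, and 7 of 44 regions in both DTx and neither untreated library (15.9%, against 12.4% genome-wide). Peaks of −log10 q of at least 5 gave -0.667 gene-end genes, opposite in sign. Equal-length lists gave a Hoxd span minus edge difference of -0.656 peaks per 100 kb and Hoxb above Hoxc by 1.58 (exact permutation p = 0.03125, adjusted p = 0.0375). With the 4 broad lists the density of Hoxa exceeded that of Hoxb by 3.9, Hoxc by 4.54 and Hoxd by 5.28, and Hoxb that of Hoxd by 1.39, where 4 libraries cannot reach p under 0.05. The cause of these changes of sign was not tested.

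Leaving out 1 library at a time, the DTx minus untreated difference ranged from -1.83 to 12.5 peaks in all windows, -5 to 2.5 in Hoxa, 1 to 4 in Hoxb, 1.67 to 5.17 in Hoxc and 0.167 to 2.17 in Hoxd, from -1.5 to 10.5 in the spans, from -0.167 to 9 genes within 10 kb and from -1.33 to 5.5 gene-end genes. DTx-only regions ranged from 0 to 4, with 4 of 52 without DTx 1 (7.69%, against 3.95% genome-wide), and untreated-only regions stayed at 0. The differences were negative without untreated 1 for the windows, spans and both gene counts, without DTx 2 for gene-end genes (-0.5), and positive for Hoxa without DTx 1 (1.17) or untreated 3. Span minus edge density ranged from 4.63 to 6.7 in Hoxa, 2.47 to 2.85 in Hoxb, 1.82 to 2.86 in Hoxc and 0.0382 to 0.864 in Hoxd. Between clusters it ranged from 3.53 to 5.65 (Hoxa minus Hoxb), 4.21 to 5.64 (Hoxa minus Hoxc), 4.98 to 7.03 (Hoxa minus Hoxd), -0.0641 to 0.685 (Hoxb minus Hoxc, -0.00696 without untreated 1), 1.36 to 1.64 (Hoxb minus Hoxd) and 0.769 to 1.43 (Hoxc minus Hoxd), where 5 libraries cannot pass. The counts shared by every library, alternatives added after the data were seen, ranged from 2 to 7 gene-end genes, 13 to 20 genes within 10 kb and 8 to 16 regions, the highest without replicate 1 of both groups.

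With a replicate block, the window difference of 4.67 peaks was unchanged and no call changed, the smallest p of 3 pairs being 0.25. Deviations of same-numbered libraries correlated at 0.665, -0.122 and 0.597, and those of differently numbered ones at -0.677 to 0.267. Replicates 1 and 3 thus had the highest values and replicate 2 did not, so whether equal numbers pair the samples stayed unsettled.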
